A study of Mus musculus with 12 samples.

Results

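Replication-dependent histone mRNAs supplied 241 of the 106382 peaks of Argonaute-bound RNA measured in mouse fetal liver, in 66 of the 12102 genes with a peak. The peaks were chosen by gene symbol alone, as all those assigned to a gene whose symbol begins with Hist1h, Hist2h, Hist3h or Hist4h, whatever part of the gene they lay in. No measured value entered this rule, although the histone genes were chosen with earlier results of these data known. In RefSeq (GRCm38.p6, the patch release of mm10), 66 of the 66 symbols matched a mouse gene. The assay was HITS-CLIP, in which RNA crosslinked to a protein in intact cells is precipitated with it and sequenced, so that reads pile up where the protein sat. The animals were C57BL/6J embryos, wild type (WT) or lacking the miR-144/451 locus (KO), and RNA was precipitated from fetal liver cells with an antibody to Argonaute (Ago) or with control IgG. Each of the 4 groups held 3 libraries, named here by the number in their title: WT Ago 1, 9 and 10, KO Ago 3, 12 and 13, WT IgG 2, 6 and 11, and KO IgG 4, 8 and 14. The sources used here do not give the embryos' age. The labels speak of 3 replicates per genotype but do not tie libraries to embryos, so p-values cover only the variation among these libraries, which may be technical.

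Argonaute proteins carry microRNAs, short RNAs that pair through their seed bases with target transcripts and repress them. The miR-144/451 locus is transcribed in erythroid cells, and fetal liver is the site where red cell precursors divide and mature before birth. Replication-dependent histone genes encode the H2A, H2B, H3 and H4 core proteins and the H1 linker, are transcribed in S phase, and give short mRNAs without introns that end in a stem-loop instead of a poly(A) tail. Most lie in large clusters of near-identical copies, and Hist4h4, an H4 gene, stands alone on another chromosome.

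Sequences are shown for the locus microRNAs and for histone peaks that lie close enough to a gene start to be covered by the RefSeq promoter windows, because they include 1 of the 2 histone peaks with a 7-mer-A1 match to miR-451a, the longest found among them. Peaks upstream of Hist1h1d and Hist1h2bk, which hold single-mismatch matches in the same windows, are not shown. The mature microRNAs carry their seed, bases 2 to 8, in capitals. In the peaks, capitals mark the stretch that matches a seed, read on the strand of the gene.
miR-451a: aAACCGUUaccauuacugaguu
miR-144-3p: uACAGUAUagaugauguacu
Hist1h3g: cttttccctACGGTTActtgcca
Hist1h2ap: agaagctgtcTACTTTctaccatgtctgga
Hist2h2ac: tgtcctacattaTACTCTaagttatgtctg
Hist1h3i: tcactttcTAGTGTactgagatggctcgta
Hist1h3g shows its whole peak at chr13:23535424-23535446 on the plus strand, where ACGGTTA is the 7-mer-A1 match to miR-451a, which pairs with bases 2 to 7 of the microRNA and ends in an A. In Hist1h2ap (chr13:21833467-21833496, minus strand) and Hist2h2ac (chr3:96220838-96220867, minus strand) the capitals match TACTNT, a miR-144-3p seed match with a single mismatch at N. In Hist1h3i (chr13:21783361-21783390, minus strand) they match TANTGT, another match of that kind. Among 32851 RefSeq promoter windows of 300 bases, ACGGTTA occurred on the gene's own strand in 0.320% and on either strand in 0.624%. The single-mismatch motifs were common: TACTNT occurred in 16.7% (30.8% on either strand) and TANTGT in 15.8% (28.6%). ACGGTTA overlaps TACNGT, a further single-mismatch motif, which occurred in 11.5% (20.1%). A match describes these letters and is not by itself a binding site.

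Reads in peaks numbered 147969 to 452157 in the Ago libraries and 24622 to 42916 in the IgG libraries, of which 1347 to 3954 and 170 to 366 lay in histone peaks. No peak overlapped the miR-144/451 locus in the files used here, so genotype was taken from the labels. Erythroid marker genes took 1.61 to 1.96% of peak reads in the WT Ago libraries and 1.18 to 1.45% in KO, without overlap, with a peak for 12 of 20 markers and none for Epb42 and the globin genes Hba-a1, Hba-a2, Hba-x, Hbb-bh1, Hbb-bs, Hbb-bt and Hbb-y. Of 12 erythroid marker genes tested, 2 passed as lower in KO and 10 did not pass, against 5.29% lower over all 4441 genes. The 2 were the transferrin receptor gene Tfrc and the erythropoietin receptor gene Epor (log2 -1.07 and -1.16). In the IgG libraries erythroid markers took 1.30, 1.21 and 2.16% in WT and 1.35, 1.55 and 2.40% in KO, and the groups overlapped. Hepatocyte markers took 0.664, 0.781 and 1.96% in WT Ago libraries 1, 9 and 10 (15 of 15 with a peak). In KO Ago libraries 3, 12 and 13 they took 1.22, 1.38 and 2.42%. Granulocyte markers took 0.130 to 0.193% in WT Ago and 0.149 to 0.233% in KO Ago (10 of 10). Macrophage markers took 0.0168 to 0.0429% and 0.0337 to 0.0343% (8 of 10, with none for Cd163 and Cd68). The part of these shifts in the histone results was not tested. In these bulk libraries, fewer cells of a type, less RNA per cell and less Ago on the same RNA cannot be told apart.

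Within the histone genes, reads crowded near the gene start, in Ago and IgG libraries alike. The peaks held 16185 Ago reads and 1550 IgG reads. By the authors' feature classes, 125 peaks (51.9%) lay in coding sequence, 60 (24.9%) in a 3′ UTR and 32 (13.3%) in a 5′ UTR, against 33.7%, 28.0% and 2.14% of all peaks. The 32 peaks in a 5′ UTR held 28.8% of the histone Ago reads. The symbol rule also took in 3 peaks, in Hist3h2bb-ps and Hist1h2aj, that the authors classed as pseudogene. By position, with each gene divided into 3 equal parts, 86 peaks centred in the first part held 58.9% of the Ago reads, 48 in the middle part held 11.7% and 82 in the last part held 24.3%. The IgG reads in histone peaks fell in these parts at 58.5, 12.7 and 24.0%. The RefSeq spans divided in this way were long for a few genes, such as Hist1h2be (37455 nt), Hist1h2bp (14079 nt) and Hist1h2bc (8282 nt). For these genes the parts are not those of a short mRNA. A histone gene had 1 to 15 peaks, with a median of 3, and Hist1h1c, a linker histone gene, had 15. All 218 peaks on a gene of known strand lay on that gene's own strand.

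As a share of all reads in peaks, the histone genes together stood at 1.15, 0.874 and 1.04% in WT Ago libraries 1, 9 and 10 (mean 1.02% ± 0.136, SD, n = 3). KO Ago libraries 3, 12 and 13 had 1.04, 0.988 and 0.910% (0.978% ± 0.0638, SD, n = 3), and the groups overlapped. The WT IgG share was 0.800% ± 0.107 and the KO IgG share 0.723% ± 0.132 (SD, n = 3 each). The total thus differed by less than the spread between libraries, while the classes did not all keep that pattern. H4 genes took 0.215, 0.203 and 0.207% in WT and 0.137, 0.182 and 0.162% in KO, with all KO libraries below all WT libraries. Without the single gene Hist4h4 the H4 share was 0.158, 0.150 and 0.163% in WT and 0.127, 0.168 and 0.145% in KO, and the groups overlapped. H3 genes went the other way, with 0.172, 0.142 and 0.162% in WT and 0.227, 0.198 and 0.188% in KO, all KO libraries above all WT libraries. Without Hist1h3i, the H3 gene with most reads, the H3 share was 0.102% ± 0.0108 (WT) and 0.130% ± 0.0171 (KO; SD, n = 3 each), and the groups overlapped. The linker H1 genes took 0.218% ± 0.0430 and 0.199% ± 0.00558, H2A genes 0.281% ± 0.0581 and 0.246% ± 0.0374, and H2B genes 0.154% ± 0.0180 and 0.169% ± 0.0142 in WT and KO (SD, n = 3 each). These shares are a description, with no test.

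**Figure D1:**
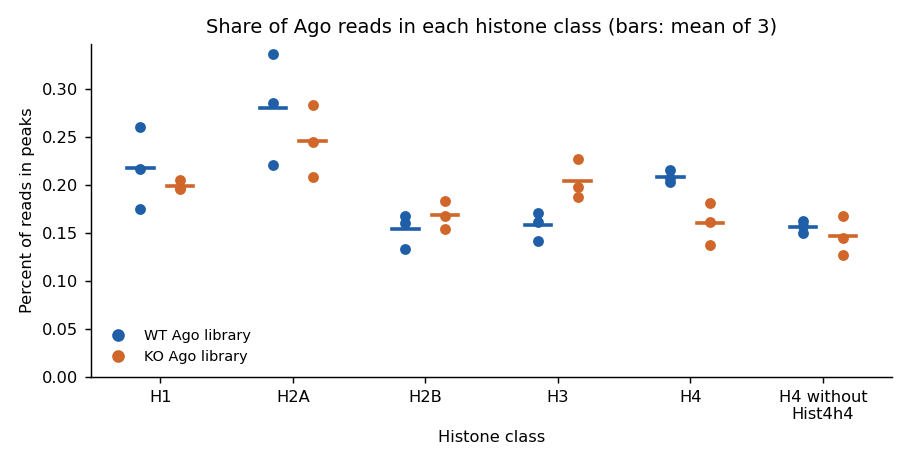
Percent of all reads in peaks that fell in the genes of each histone class (vertical axis), for the 3 WT and 3 KO Ago libraries (points) with the mean of each group (bar). All KO libraries lie above WT for H3 and below WT for H4, and the H4 groups overlap once Hist4h4 is left out.

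KO and WT Ago libraries were compared peak by peak, to see where Ago binding on histone mRNA differed without the locus. Of the 241 peaks, 74 in 43 genes had enough reads to be tested. In KO, 11 passed an adjusted p of 0.05 as lower and 1 as higher, and 62 did not pass. Over all 2425 tested peaks 17.6% were lower and 1.4% higher, and the count of histone peaks called lower is not above that background. The median log2 change was -0.09 for the 74 histone peaks and 0.09 over all tested peaks. All KO libraries lay below all WT libraries for 12 of the 74 (19.6% of all tested peaks) and above for 13 (17.4%). The 167 untested peaks held 5 to 65 Ago reads each. Of the tested peaks, 36 passed the read filter in both genotypes, 3 through the WT libraries alone, 6 through the KO libraries alone and 29 through a mix of libraries. The 3 that passed through WT alone were called lower, and a peak that passes in this way has to be low in KO. Of the 29 that passed through a mix, 6 were lower and 1 higher. In those 6 the 3 WT libraries sufficed for the filter, and in the 1 higher peak the 3 KO libraries, so the same limit applies.

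By class, 6 of 18 tested H4 peaks were lower and 1 higher (median log2 change -0.29), 2 of 15 H2A peaks were lower (-0.15), and 1 each of 15 H1 (-0.50), 11 H2B (0.18) and 15 H3 peaks (0.28). Over all tested peaks 17.6% were lower and 1.4% higher. The 6 H4 peaks were 3 of Hist4h4, 2 of Hist1h4f and 1 of Hist1h4b, and the 2 H2A peaks, of Hist1h2ao and Hist1h2ap, had nearly the same counts. By cluster, 7 of 55 tested Hist1 peaks, 1 of 15 Hist2 peaks and 3 of 4 Hist4 peaks were lower. The Hist4 peaks are all of Hist4h4. Peaks of 1 gene are not replicates of a class or cluster. None of the 9 Hist3 peaks had enough reads for the test.

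**Figure D2:**
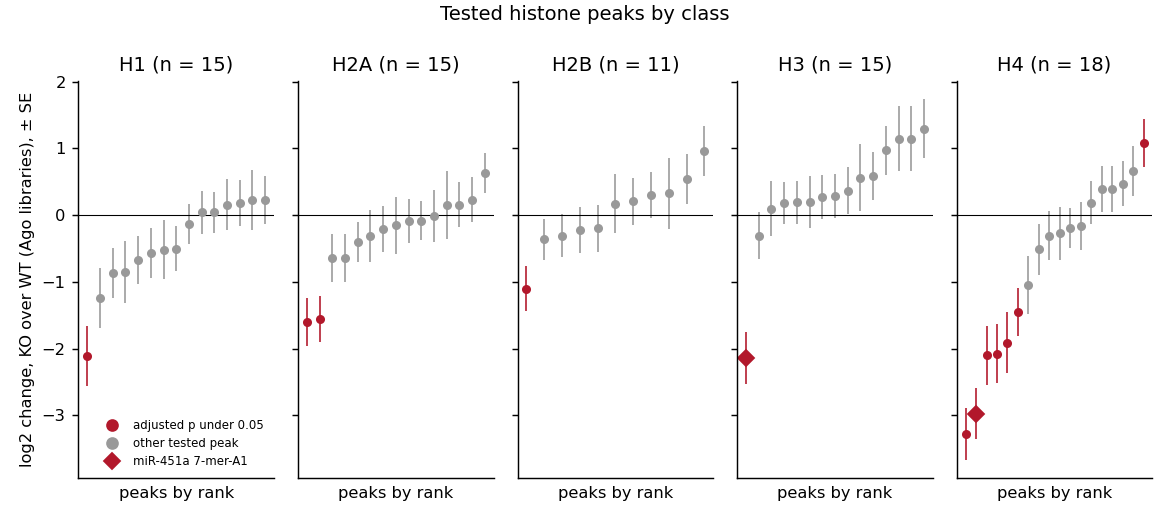
Log2 change of KO over WT (vertical axis, with SE) for each of the 74 tested histone peaks, ranked within its class, with called peaks in red and other tested peaks in grey. Diamonds mark the 2 peaks with a 7-mer-A1 match to miR-451a, 1 in H3 and 1 in H4, and the largest falls are H4 peaks.

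Hist4h4 had the largest fall of all histone genes tested. The gene (RefSeq H4f16) spans 439 nt at chr6:136803993-136804431 on the minus strand and had 6 peaks. Its level, in reads per 1000000 reads in all peaks of the library (RPM) and summed over its peaks, was 579, 533 and 439 in WT libraries 1, 9 and 10 and 101, 135 and 169 in KO libraries 3, 12 and 13. The KO values lie together well below the lowest WT library. Means were 517 ± 71.4 (WT) and 135 ± 34.2 (KO; SD, n = 3 each), a log2 change of -2.03 ± 0.23 (SE) with an adjusted p of 4.3e-04. WT IgG libraries had 134 ± 113 and KO IgG libraries 96.8 ± 129 RPM (SD, n = 3 each), from 16 and 8 reads in all, so the KO Ago level was within the range of the controls.

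The fall covered the coding part and the 3′ UTR of Hist4h4. A coding peak at chr6:136804117-136804148 had 58, 67 and 30 reads in the WT libraries and 4, 6 and 6 in KO, with a log2 change of -2.97 ± 0.38 (SE, adjusted p = 9.1e-05). This is the peak of Hist4h4 with a deposited 7-mer-A1 match to miR-451a. A further coding peak at chr6:136804244-136804277 had 45, 63 and 24 reads in WT and 2, 6 and 3 in KO, with -3.28 ± 0.39 (SE, adjusted p = 7.1e-05). It is 1 of the 3 peaks that entered the test through the WT libraries alone, so its p is no independent support. A 3′ UTR peak at chr6:136804025-136804087 with no match to the locus microRNAs had 21, 47 and 19 reads in WT and 3, 5 and 8 in KO, with -2.10 ± 0.44 (SE, adjusted p = 0.0023). The coding peak with the 7-mer-A1 match and this 3′ UTR peak passed the filter through the 3 WT libraries and KO library 13 alone. The WT libraries sufficed, so their p-values are no independent support either. In these 3 peaks all KO libraries lay below all WT libraries in RPM. The 5′ UTR peak at chr6:136804332-136804409 had 32, 46 and 10 reads in WT and 9, 24 and 3 in KO, and its groups overlapped (-1.05 ± 0.43, SE, adjusted p = 0.12). The remaining coding peak, at chr6:136804179-136804223, was too low to test, with 12, 17 and 6 reads in WT and 1, 4 and 2 in KO. The last peak, at chr6:136803964-136803984, had at most 3 reads in any Ago library.

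**Figure D3:**
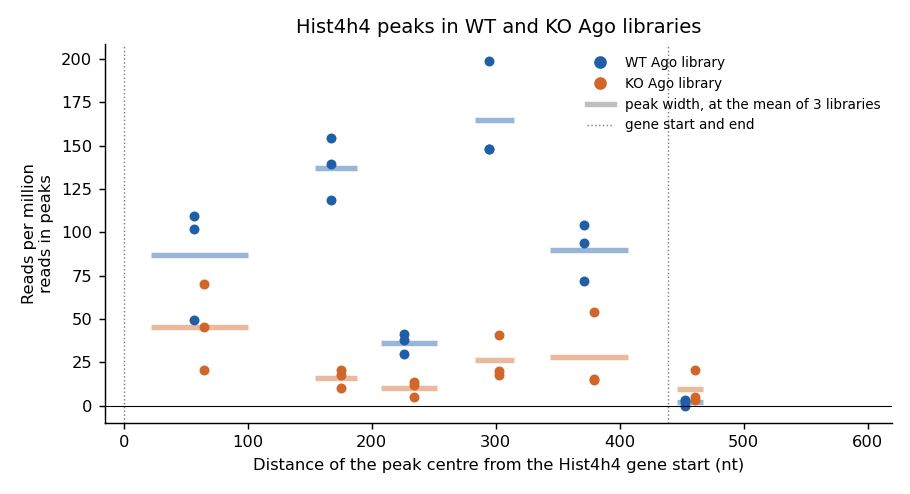
Level of each Hist4h4 peak in RPM (vertical axis) against the distance of its centre from the gene start in nucleotides (horizontal axis), for 3 WT and 3 KO Ago libraries (points), with the peak's width drawn at the group mean. The coding peaks centred 171 and 299 nt from the start stand at means of 137 and 165 in WT and 15.98 and 26.1 in KO, while the first peak, at 61 nt, overlaps between the groups.

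Hist1h4f and Hist1h4b, both H4 genes, also had lower peaks, 2 in the first and 1 in the second. In Hist1h4f (RefSeq H4c6, chr13:23551286-23551668) a 3′ UTR peak at chr13:23551316-23551346 had 22, 25 and 9 reads in WT and 2, 7 and 2 in KO, a log2 change of -2.07 ± 0.44 (SE, adjusted p = 0.0025), but it entered the test through the WT libraries alone and its p is no independent support. A coding peak of the same gene at chr13:23551611-23551647 had 19, 57 and 23 reads in WT and 9, 12 and 8 in KO, with -1.45 ± 0.37 (SE, adjusted p = 0.0088). KO library 12 fell short of the filter there and the WT libraries sufficed, so this p is no independent support either. Summed over its peaks, Hist1h4f went from 192, 239 and 232 RPM in WT to 95.6, 93.8 and 101 in KO, with no overlap (-1.25 ± 0.22, SE, adjusted p = 0.0049). The coding peak was not called when WT library 9 was left out (-1.17, adjusted p = 0.068). In Hist1h4b a 3′ UTR peak at chr13:23757319-23757369 had 50, 48 and 23 reads in WT and 4, 23 and 2 in KO, with -1.91 ± 0.46 (SE, adjusted p = 0.0061). It passed the filter through the 3 WT libraries and KO library 12 alone, so its p is no independent support either. The 5′ UTR peak of Hist1h4b had 30, 61 and 25 reads in WT and 22, 47 and 17 in KO (-0.19, adjusted p = 0.75), and the whole gene did not pass (253 ± 20.8 against 162 ± 39.5 RPM, SD, n = 3 each, adjusted p = 0.090). The single higher peak was also in an H4 gene, in the 3′ UTR of Hist1h4j at chr13:21735406-21735433, with 8, 22 and 7 reads in WT and 14, 37 and 15 in KO (1.08 ± 0.36, SE, adjusted p = 0.049). It carried 6-mer matches to miR-21a and miR-16 and none to the locus microRNAs. Its call was lost in 8 of 13 other settings, among them without WT library 1 (0.77, adjusted p = 0.32), WT library 10 (0.97, 0.13), KO library 12 (0.88, 0.19) or KO library 13 (1.16, 0.067).

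Among H3 genes, Hist1h3g (RefSeq H3c8, chr13:23535418-23535909) fell at the peak whose sequence is printed above with its ACGGTTA match to miR-451a. That 5′ UTR peak had 66, 57 and 41 reads in WT and 14, 16 and 3 in KO, a log2 change of -2.14 ± 0.39 (SE, adjusted p = 8.0e-04). KO library 13 fell short of the read filter there and the WT libraries sufficed, so this p is no independent support. The IgG libraries were not low there: WT IgG stood at 231 ± 35.7 RPM and KO IgG at 147 ± 57.3, and WT Ago at 185 ± 52.2 and KO Ago at 45.9 ± 25.1 (SD, n = 3 each). The coding peak of the same gene had 24, 44 and 12 reads in WT and 20, 25 and 8 in KO (-0.31, adjusted p = 0.64). Over all its peaks Hist1h3g went from 290 ± 38.6 to 128 ± 44.6 RPM (SD, n = 3 each, log2 -1.22 ± 0.26, SE, adjusted p = 0.014), and the call was lost without WT library 1 (-1.08, 0.053), KO library 12 (-1.07, 0.076) or KO library 13 (-1.06, 0.071).

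Hist1h3i, the histone gene with most Ago reads (1010), did not pass the test in either direction. Its coding peak at chr13:21783360-21783390, of which the printed stretch is part, had 130, 181 and 111 reads in WT and 136, 177 and 97 in KO (log2 0.19, adjusted p = 0.77). The gene stood at 560 ± 72.7 RPM (WT) and 747 ± 92.2 (KO; SD, n = 3 each, log2 0.37, adjusted p = 0.31). Its IgG level was as high, at 690 ± 345 (WT) and 714 ± 271 (KO; SD, n = 3 each). Hist2h3b, an H3 gene with few reads, stood at 22.7 ± 14.0 RPM (WT) and 72.1 ± 4.1 RPM (KO; SD, n = 3 each, log2 1.46 ± 0.42, SE, adjusted p = 0.053), just short of the threshold.

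Among H2A genes, the copies Hist1h2ao and Hist1h2ap fell together, but their values are not separate measurements. The Hist1h2ao coding peak at chr13:21810446-21810481 had 59, 67 and 33 reads in WT and 12, 30 and 6 in KO (log2 -1.55 ± 0.35, SE, adjusted p = 0.0035). The Hist1h2ap peak at chr13:21833463-21833496 had 57, 67 and 33 in WT and 11, 30 and 5 in KO (-1.60 ± 0.36, SE, adjusted p = 0.0037). KO library 13 fell short of the read filter at the Hist1h2ap peak and the WT libraries sufficed, so its p is no independent support. The totals of both peaks over the 12 libraries, 225 and 219 reads, differ by 6, and they are read here as 1 measurement. How reads that fit both copies were counted was not given in the sources used. As whole genes they fell by log2 -1.29 ± 0.30 and -1.33 ± 0.32 (SE, adjusted p = 0.023 and 0.024), and both calls were lost without WT library 1 (-1.18 and -1.23, adjusted p = 0.066 and 0.069), KO library 3 (-1.16 and -1.18, 0.069 and 0.073) or KO library 13 (-1.08 and -1.09, 0.087 and 0.088). Hist2h2aa1 and Hist2h2aa2, a duplicated pair with identical counts, had 761 Ago reads each and did not pass (533 ± 173 against 414 ± 81.2 RPM, SD, n = 3 each, log2 -0.42, adjusted p = 0.37). Hist1h2ab likewise did not pass (213 ± 26.9 against 241 ± 23.8, SD, n = 3 each, log2 0.13, adjusted p = 0.75). The 5′ UTR peak of Hist2h2ac, with the printed TACTNT match, had 45, 56 and 33 reads in WT and 61, 66 and 45 in KO. All KO libraries were above all WT libraries in RPM there, yet the peak did not pass (log2 0.63 ± 0.30, SE, adjusted p = 0.20).

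In the H2B gene Hist2h2bb, the coding peak at chr3:96269723-96269761 had 106, 119 and 92 reads in WT and 52, 55 and 23 in KO (360 ± 95.2 against 193 ± 59.7 RPM, SD, n = 3 each). Its log2 change was -1.10 ± 0.34 (SE, adjusted p = 0.030), and the call was lost in 5 of 13 other settings, among them without WT library 10 (-0.96, 0.055), KO library 12 (-0.98, 0.10) or KO library 13 (-0.88, 0.13). The whole gene, second by Ago reads with 912, did not pass (625 ± 135 against 534 ± 128 RPM, SD, n = 3 each, log2 -0.28, adjusted p = 0.54).

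Of the linker histone genes, Hist1h1b fell at a coding peak at chr13:21780393-21780431, with 31, 20 and 19 reads in WT and 5, 6 and 3 in KO (log2 -2.11 ± 0.45, SE, adjusted p = 0.0027). This peak too entered the test through the WT libraries alone, and it carries no match to the locus microRNAs. A neighbouring coding peak starting at position 21780344 had a log2 change of -1.24 (adjusted p = 0.070), and the 5′ UTR peak had 67, 52 and 54 reads in WT and 33, 45 and 30 in KO (-0.50, adjusted p = 0.41). The gene as a whole stood at 566 ± 148 and 388 ± 10.3 RPM (SD, n = 3 each, log2 -0.61, adjusted p = 0.15). The other well-read linker genes did not pass: Hist1h1d stood at 531 ± 139 and 501 ± 32.5, Hist1h1c at 441 ± 39.1 and 508 ± 22.9, and Hist1h1a at 447 ± 93.8 and 443 ± 77.3 RPM in WT and KO (SD, n = 3 each, adjusted p = 0.76, 0.68 and 0.88).

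With reads summed per gene, 54 of the 66 histone genes could be tested in KO against WT Ago libraries. Hist4h4, Hist1h4f, Hist1h3g, Hist1h2ao and Hist1h2ap were lower, none was higher and 49 did not pass, against 5.29% lower and 0.653% higher over all 4441 genes tested. Hist1h2ao and Hist1h2ap, read above as 1 measurement, count as 2 in this and the other counts of genes and peaks. At an unadjusted p under 0.05, 9 histone genes were lower and 9 higher, against 952 of all 4441 genes in either direction. Library-size scaling alone called 1 histone gene higher. The median log2 change was 0.13 over the histone genes and 0.03 over all genes. Leaving out WT library 1 or KO library 13 reduced the lower genes to 2, and leaving out KO library 3 reduced them to 3. Hist4h4 and Hist1h4f kept their calls in 13 of 13 other settings, with log2 changes from -2.19 to -1.90 and from -1.32 to -1.14. Per kb of gene, WT Ago levels were highest in Hist2h2bb (1268 RPM per kb), Hist4h4 (1177) and Hist1h3i (1159), and in KO these stood at 1084, 307 and 1546.

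**Figure D4:**
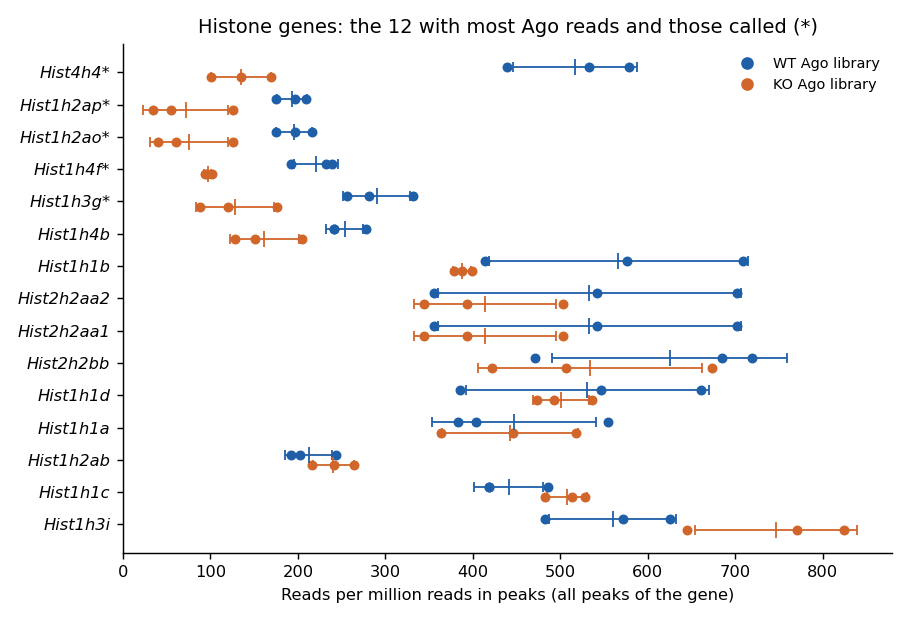
RPM, summed over all peaks of a gene (horizontal axis), for the 12 histone genes with most Ago reads and the genes called (asterisk), with 3 WT and 3 KO Ago libraries as points and mean ± SD as bars. Hist4h4 moves from 517 to 135, while most of the well-read genes, such as Hist1h1d at 531 and 501, overlap between genotypes.

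The IgG libraries gave little room to compare the same contrast. In KO against WT IgG libraries 5 histone genes could be tested and edgeR called none, over all 251 genes it called 0 with 2 at an unadjusted p under 0.05, and DESeq2 and limma-voom also called 0. The interaction, which asks whether the KO change differed between Ago and IgG libraries, called 0 of 41 histone genes and 0 of all 2654 by edgeR, and 0 by DESeq2 and limma-voom. At an unadjusted p under 0.05 there were 121 genes in all and 3 histone genes: Hist1h4f (log2 -2.17), Hist1h2ao (-1.79) and Hist1h2ap (-1.86). For Hist4h4 the interaction was -1.16 ± 0.85 (SE, adjusted p = 0.94), so a fall limited to Ago libraries was not shown for this gene.

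Deposited seed codes sorted the peaks by their best match to the locus microRNAs miR-451a, miR-144-3p and miR-144-5p. A match of any grade was recorded for 73 of 241 histone peaks (30.3%), against 40.7% of all peaks. Among tested histone peaks 7 of 28 with a match were lower (25%, against 29.0% of 1215 over all tested peaks) and 4 of 46 without one (8.70%, against 6.28% of 1210). The 2 histone peaks with a miR-451a 7-mer-A1 match, in Hist4h4 and Hist1h3g, were both lower, as were 38 of 40 over all peaks with such a match or a longer one. For the Hist4h4 and Hist1h3g peaks the WT libraries sufficed for the read filter, so their calls carry the limit given above. With a single mismatch to miR-451a, 2 of 10 histone peaks were lower (20%, against 41.9% of 334 over all peaks). With a single mismatch to miR-144-3p, 4 of 18 were lower (22.2%, against 21.1% of 617). The sole histone peak with a 7-mer or longer match to miR-144-3p, in the 3′ UTR of Hist1h2bg at chr13:23571865-23571902, had 1, 3 and 1 reads in WT and 1, 4 and 0 in KO and could not be tested.

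Many histone peaks had the same or nearly the same counts as a peak of another copy. There were 11 pairs, 22 peaks in all, whose counts were identical in all 12 libraries, and 32 peaks of at least 20 reads had counts within 10% of another histone peak. Near-equal counts also occurred in 44 pairings with peaks outside the histone genes, so this measure alone does not show shared reads. The 5′ UTR peaks of Hist2h2aa1 and Hist2h2aa2 each had 715 reads. A peak of Hist1h4j and a peak of Hist1h4k each had 192, and the 3′ UTR peaks of Hist2h3c1 and Hist2h3c2 each had 60. The coding peaks of Hist1h4m and Hist1h4n each had 29, and the 3′ UTR peaks of Hist1h2ao and Hist1h2ap each had 43. For peaks with identical counts a level or a call cannot be placed on either copy, and whether the same reads were counted more than once was not tested. No peak of Hist4h4, Hist1h3g or Hist1h4f named above had a histone partner with identical counts.

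The authors' deposited table of differential peaks lists 48 of the 241 histone peaks (19.9%, against 6.25% of all peaks), of which it gives 10 as lower at a false discovery rate of 0.05 (20.8%) and 0 as higher, against 2372 (35.7%) lower and 86 higher of all 6651 peaks it lists. In the authors' deposited table the lowest rates were for Hist1h2ao (log2 -2.03), Hist1h2ap (-2.12) and the 5′ UTR peak of Hist1h4i (-2.60). It lists no peak of Hist4h4 or Hist1h3g. All 5373 listed peaks with a gene met 3 limits, namely a density above 5 relative to the gene's average coverage, a ratio of IgG to Ago height under 0.2 and a lowest library height of 3 or more in at least 1 genotype, and every peak with a gene that met these limits was listed. The limits were read from the values, since the deposited description says only that the peaks passed filtering. Of the 11 histone peaks called lower here, 9 missed the density limit alone and 2, those of Hist1h2ao and Hist1h2ap, were listed. Their density ran from 0.825 to 12.1 with a median of 2.75. Of all 428 peaks called lower, 171 missed the density limit alone and 249 exceeded it (58.2%), against 2 of the 11 histone peaks (18.2%). Of tested histone peaks 31 of 74 exceeded the density limit (41.9%), against 1139 of 2425 over all tested peaks (47.0%). The shares over all peaks include peaks without a gene, for which the limits were not established, while every histone peak has a gene. For the Hist4h4 peaks with the largest falls the density was 2.54 and 2.75, and for the Hist1h3g peak 3.15.

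**Figure D5:**
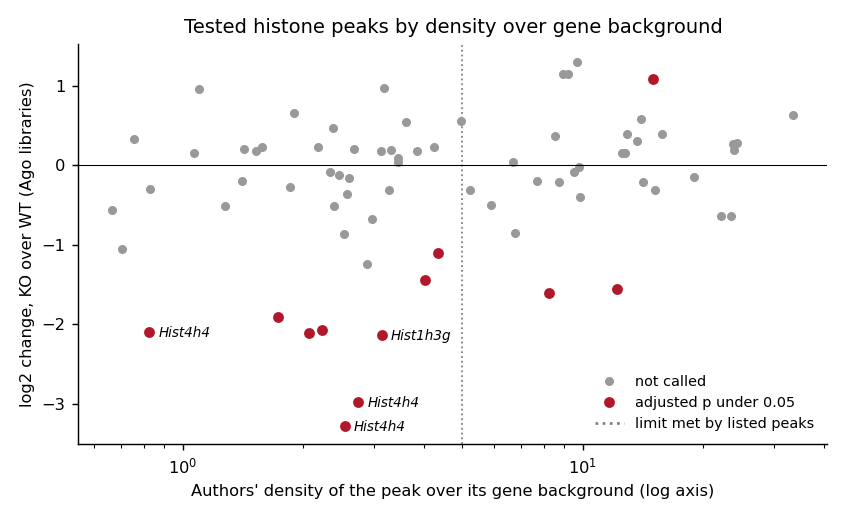
Log2 change of KO over WT (vertical axis) against the authors' density of a peak over its gene's average coverage (horizontal log axis) for the 74 tested histone peaks, with the limit met by the authors' listed peaks as a dotted line. Of the 11 lower peaks, 9 lie left of the limit of 5, including those of Hist4h4 and Hist1h3g.

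Ago and IgG libraries were compared within each genotype, to see which histone RNAs were enriched by the Ago antibody. The answer for single peaks depended on the scaling. After scaling on the tested peaks, 26 of 29 histone peaks were higher in Ago in WT (35.9% of all 894 peaks tested were higher) and 20 of 20 in KO (40% of all 645). With all reads in peaks as the library size, 4 were higher and 3 lower in WT (6.38% and 61.7% of all 894 peaks), and 5 higher and 0 lower in KO (4.34% and 66.2% of all 645). This scaling moved the median log2 difference over all tested peaks from -0.14 to -2.38 in WT and from -0.17 to -2.86 in KO, and that of the histone peaks from 2.85 to 0.62 and from 3.37 to 0.69. The tested peaks held 4.99 to 7.40% of the peak reads of the WT Ago libraries and 17.5 to 21.3% of those of the WT IgG libraries. Under both scalings, the WT Ago libraries were higher at the Hist4h4 peak at chr6:136804244-136804277 (log2 4.996, and 2.84 with all peak reads), the coding peak of Hist2h2bb (3.55 and 1.36), the 5′ UTR peak of Hist1h1b (3.97 and 1.81) and the 3′ UTR peak of Hist1h4b (4.37 and 2.19). In KO the 5′ UTR peaks of Hist2h3c1 and Hist2h3c2 were higher under both (5.51 and 2.98), as were the 5′ UTR peak of Hist2h2ac (4.36 and 1.77), that of Hist1h1b (4.60 and 1.99) and a coding peak of Hist1h1d (4.65 and 1.97). Others among the lowest p-values, called after scaling on the tested peaks alone, were Hist2h2aa1 with Hist2h2aa2, Hist1h1a and Hist1h2ap in WT, and Hist1h3i and Hist1h2ag in KO. A peak could pass the read filter through the 3 Ago libraries alone, and one that does has to be low in IgG. How many passed in this way was not counted. The 5′ UTR peaks of Hist2h3c1 and Hist1h1b, for example, had 2, 0 and 0 and 4, 0 and 0 reads in KO IgG libraries 4, 8 and 14. The p-values of such peaks are no independent support for enrichment. Leaving out a library changed how many peaks passed the filter. Without WT Ago library 1, 9 or 10, 7 of 7 tested histone peaks were higher each time (19.6, 20.3 and 20.3% of all tested peaks), and without WT IgG library 2, 6 or 11, 48 of 62, 39 of 64 and 38 of 60 (41.5, 31.0 and 28.8%). In KO, 3 of 3, 5 of 5 and 4 of 4 were higher without Ago library 3, 12 or 13 (18.7, 17.7 and 14.9%). Without KO IgG library 4, 8 or 14, 33 of 48, 22 of 52 and 21 of 48 were higher (37.0, 26.8 and 28.2%).

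Summed per gene, several H4 genes were lower in Ago than in IgG. In WT 6 of 33 histone genes were lower and 0 higher, against 13% and 2% of all 2603 genes: Hist1h4d (log2 -1.62), Hist1h4k (-1.90), Hist1h4j (-1.58), Hist2h4 (-1.53), Hist1h3i (-1.03) and Hist1h2ad (-1.30). Of 13 other settings, Hist1h2ad lost its call in 12, Hist1h3i in 10, Hist2h4 in 8 and Hist1h4d in 2, while Hist1h4j lost it in 3 of 10 and Hist1h4k in 2 of 9 that tested them. Hist1h4j and Hist1h4k have the identical peaks of 192 reads given above. The fits per peak and per gene disagreed on Hist1h3i and Hist1h2ad. Their main peaks, with 832 of 1010 and 239 of 292 Ago reads, were called higher in WT Ago (1.75 and 2.23, edgeR adjusted p = 0.0018 and 0.0050). With all peak reads as library size these peaks stood at -0.46 and 0.065 and were not called. The cause of the disagreement was not tested. In KO 2 of 33 were lower, Hist1h4f (-2.08) and Hist1h4d (-1.09), and Hist2h3c2 was higher (2.71), against 10.4% lower and 2.16% higher of all 1988 genes. Hist1h4d lost this call in 11 of 13 other settings, Hist1h4f in 1 of 10 and Hist2h3c2 in 3 of 10. A coding peak of Hist1h4d was called higher in the same KO libraries. Hist1h4d stood at 190 ± 15.4 and 235 ± 41.4 RPM in WT and KO Ago, and at 343 ± 131 and 317 ± 82.8 in WT and KO IgG (SD, n = 3 each). Both comparisons rest on few reads, since the IgG libraries held 170 to 366 histone reads each, and leaving out any 1 of the 6 libraries reduced the lower genes to between 1 and 3 in WT and to 0 or 1 in KO. The higher call of Hist2h3c2 in KO was a single gene, and without IgG library 4 there were 3 higher genes, without any of the other 5 libraries 0.

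Genes that work with histone mRNA were examined in the same KO against WT fit of Ago libraries. Over all 4441 genes of that fit, 5.29% were lower and 0.653% higher. Of 26 tested S phase genes, 2 were lower and 0 higher (median log2 -0.41): Cdc45, a part of the replicative helicase, went from 150 ± 26.9 to 48.3 ± 11.0 RPM, and Rrm2, a ribonucleotide reductase subunit, from 559 ± 91.4 to 357 ± 17.5 (SD, n = 3 each, log2 -1.76 and -0.71, adjusted p = 0.0021 and 0.042). By peaks, 9 of 28 tested S phase peaks in 14 genes were lower, against 17.6% of all tested peaks, among them a coding peak of Rrm2 (log2 -3.90) and a 3′ UTR peak of Dut (-4.03). A peak that passes the read filter through the WT libraries alone has to be low in KO. How many peaks of these lists passed in this way was not counted. Of 15 genes of histone transcription and 3′ end processing, 1 was lower, Cstf2 (84.4 ± 35.3 to 26.0 ± 11.2, SD, n = 3 each, log2 -1.71, adjusted p = 0.031). Slbp, which binds the histone stem-loop and is also in the S phase list, did not pass as a gene (log2 -0.69 ± 0.21, SE, adjusted p = 0.070). Its 5′ UTR peak was lower (-1.40, adjusted p = 0.029), with the same limit. None of 8 genes of histone mRNA translation and decay was called, and those with most Ago reads were Upf1 (332 and 340 RPM in WT and KO), Eri1 (198 and 161) and Zcchc11 (133 and 182). Of 18 chaperone and acetylation genes 1 was lower, Asf1b, which hands H3 and H4 to other chaperones (155 ± 12.5 to 70.5 ± 23.3, SD, n = 3 each, log2 -1.12, adjusted p = 0.023). Of 7 histone genes outside the symbol rule, the variant genes H2afv (192 ± 8.7 to 91.5 ± 11.1, log2 -1.16, adjusted p = 0.011) and Cenpa (176 ± 55.4 to 96.5 ± 10.1, log2 -0.98, adjusted p = 0.037) were lower (SD, n = 3 each). The S phase list as a whole took 0.815% ± 0.143 of the WT Ago reads and 0.674% ± 0.0804 of the KO Ago reads in peaks (SD, n = 3 each), and its groups overlapped.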

How the data were processed

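Values came from the authors' deposited table of Ago peaks. Per the deposited column description, its counts are raw reads overlapping a peak by at least 16 bases, and a peak's edges are set by its coverage. The deposited maximum coverage per library is a signal, not scaled for depth, and enters the authors' IgG ratio. The authors' seed codes and density over gene coverage are scores. The authors' separate table gives log2 fold changes with p-values and false discovery rates from voom and limma. Tools named in the submitters' processing notes are cutadapt, bedtools, STAR and limma, with build mm10. Their versions, and the handling of reads that fit several places, were not given in the sources used. Coordinates are those of the deposited files.

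Counts per peak, or summed per gene over its peaks, were tested across all peaks or genes with edgeR 4.0.16 in R 4.3.3 (quasi-likelihood, TMM scaling, filterByExpr at minimum count 10 and minimum total 15, Benjamini-Hochberg adjustment, threshold 0.05). Each fit used the 6 libraries compared, and the interaction used all 12. Levels are reads per 1000000 reads in all peaks of the library (RPM). The test was checked on simulated counts. Alternatives were DESeq2 1.42.0, limma-voom (limma 3.58.1), other scalings, no read filter, identical peaks counted once and leaving out each library. Scaling on all peak reads was added after seeing the data, as were class shares without Hist4h4 or Hist1h3i.

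The histone genes and the lists of related genes were chosen with earlier results of these data known. Named are the 12 histone genes with most Ago reads, histone genes or peaks past the threshold (up to 10 per direction), peaks with a 7-mer-A1 or longer match to miR-451a or miR-144-3p, and at most 4 called genes from any other list. A few peaks of these genes that did not pass, and Hist2h2ac and Hist2h3b, were chosen after their values were seen. Sequences of coding and 3′ UTR peaks were not analysed here. A further list of cell type markers is not reported here.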

Additional observations from a re-analysis of the deposited data

How the results depend on the processing

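Called histone genes and peaks kept their direction in KO against WT Ago libraries under all alternatives that tested them. Lower peaks numbered 17 with no read filter, and higher peaks 0 with DESeq2's size factors in edgeR, no filter, DESeq2 or limma-voom, 3 with library size alone and 4 with all peak reads as library size. Higher genes numbered 1 with library size alone or identical peaks counted once. For peaks higher in Ago than IgG, WT gave 57 with no filter and 4 (with 3 lower) with all peak reads, and KO gave 5. With all peak reads the log2 change turned negative in WT for the named peaks of Hist1h3i (-0.46), Hist1h3g (-0.34), Hist1h2bh (-0.085) and Hist1h1d (-0.41), and in KO for Hist1h4j (-0.44), Hist1h4k (-0.44), Hist1h3i (-0.030), Hist1h4d (-0.43) and Hist1h2ab (-0.24). This scaling does not set tested peaks to a common total, and the cause was not tested. For genes in WT Ago against IgG, lower genes numbered 0 with no filter, 3 with limma-voom and 2 with identical peaks once, and higher genes 1 with library size alone, no filter, identical peaks once or all peak reads. In KO, lower genes numbered 1 with DESeq2's size factors in edgeR, library size alone, no filter, identical peaks once or all peak reads. Higher genes there numbered 2 under the first 3 of these, limma-voom or all peak reads, and 0 with DESeq2. The histone share was 1.21% (WT Ago) and 1.13% (KO Ago) with identical peaks once, and 1.24% and 1.17% over peaks with at least 10 reads. Leaving out 1 library gave 9 to 14 lower and 0 to 3 higher peaks and 2 to 6 lower and 0 to 1 higher genes in KO against WT. It gave 7 to 48 and 3 to 33 peaks higher in Ago than IgG in WT and KO, 1 to 3 lower and 0 to 1 higher genes in WT, and 0 to 1 lower and 0 to 3 higher in KO. Shares ranged from 0.957 to 1.09% (WT Ago), 0.949 to 1.01% (KO Ago), 0.757 to 0.860% (WT IgG) and 0.658 to 0.790% (KO IgG). No paired analysis was possible because the groups share no library numbers. Depth limits the 167 untested peaks and all comparisons with IgG.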
